A study of Mus musculus with 68 samples.

Results

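Hearts taken 2 h after an intravenous injection of vehicle were compared with hearts of untreated mice, gene by gene. All animals were wild-type C57BL/6J females aged 10 weeks. The vehicle was 50 to 60 µL of phosphate-buffered saline given into the retro-orbital sinus under isoflurane, so injection, anaesthesia and saline come together in this group; the labels describe neither anaesthesia nor injection for the untreated mice, which are given as time 0 h. Each group had 3 libraries of polyadenylated RNA out of 17 heart libraries and 68 in the whole series, which also covers Egf-treated mice and lung, kidney and liver. The series was made to learn how organs respond to Egf, and this pair of groups shows what differs between its 2 kinds of control. All 56748 genes of the deposited table belong to the comparison; 24286 had a read in these 6 libraries and 15618 passed the filter on low counts and were tested. Of those tested, 1717 were set apart because their level in liver or kidney was at least 10 times that in heart, which left 13901.

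Several gene groups described below are known to respond quickly. Glucocorticoid hormone binds a receptor that enters the nucleus and induces a set of genes within hours. Immediate early genes such as Fos and Egr1 are transcribed within minutes of a stimulus and their transcripts decay quickly, and many cardiac genes also follow the circadian clock. In whole-organ RNA, fewer cells of a type and less RNA per cell cannot be told apart.

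The 6 libraries held between 13271813 and 18278192 counted reads. Cardiomyocyte markers summed to between 80413 and 102690 CPM, which are reads scaled to the library total, in the vehicle hearts and between 77643 and 85823 CPM in the untreated hearts. Transcripts of other organs differed far more. The 16 hepatocyte markers summed to 136, 82.8 and 124 CPM in the vehicle hearts, against 20071, 1474 and 17926 CPM in the untreated hearts, and all 16 had reads in these 6 libraries. The 12 kidney markers summed to 3907, 519 and 14.8 CPM in the vehicle hearts, against 0.888, 1397 and 2.79 CPM in the untreated hearts. B cell markers ran from 6.95 to 9.11 CPM in the vehicle hearts and from 19.5 to 66.0 CPM in the untreated hearts. Of 21 marker lists, 18 overlapped between the groups. The exceptions were hepatocyte, B cell and pancreas acinar cell markers, the last below 1 CPM in all 6 libraries. Single genes separated the groups without overlap in 8.61% (vehicle higher) and 8.64% (vehicle lower) of those tested. The share of reads from 18S ribosomal RNA was also lower in every vehicle heart, at 0.537% to 0.803%, than in the untreated hearts, at 0.847% to 1.73% (exact two-sided permutation test, p = 0.1, the smallest that 3 against 3 allows). Values obtained without the libraries rich in hepatocyte markers, with hepatocyte and kidney markers as covariates, or after subtracting estimated liver and kidney RNA are given beside the results they move.

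**Figure D1:**
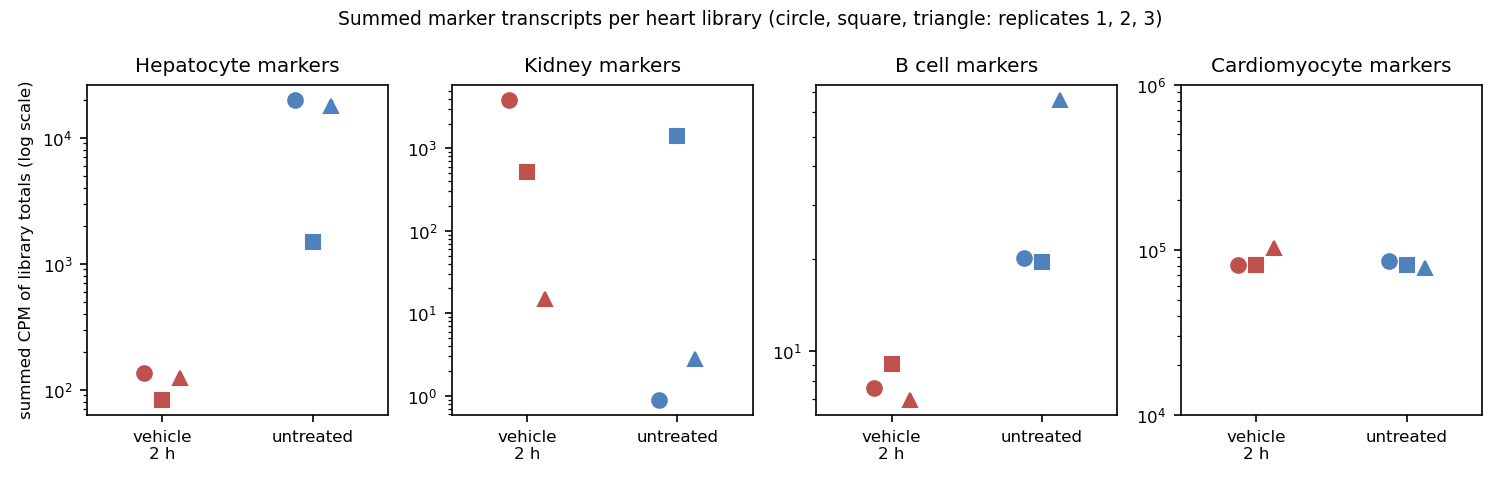
Summed CPM of 4 marker lists in each heart library on log axes, vehicle 2 h left of untreated, 1 point per library. Hepatocyte markers lie between 82.8 and 136 CPM in the vehicle hearts and between 1474 and 20071 CPM in the untreated hearts, while cardiomyocyte markers overlap.

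2 genes passed the test, which is 0.0128% of the 15618 tested and 0.0144% of the 13901 not set apart, and both rose after vehicle. No gene fell. Map3k6, a stress-activated kinase of the MAP kinase cascade (ENSMUSG00000028862, mm39 chromosome 4, 132968129 to 132980240, plus strand), had 18.2, 14.0 and 16.6 CPM in the vehicle hearts, against 4.49, 5.87 and 4.57 CPM in the untreated hearts. Levels of single genes here and below are CPM after TMM scaling over the heart libraries. The groups did not overlap, the lowest vehicle heart lying far above the highest untreated one, and the log2 fold change was 1.71 ± 0.25 (SE; edgeR, adjusted p = 0.0476). Tmem100, a membrane protein of endothelium that responds to bone morphogenetic protein signals (ENSMUSG00000069763, chromosome 11, 89921174 to 89927334, plus strand), had 23.3, 34.8 and 30.8 CPM in the vehicle hearts, against 10.1, 15.0 and 13.1 CPM in the untreated hearts. The groups did not overlap, and the log2 fold change was 1.22 ± 0.18 (SE; edgeR, adjusted p = 0.0476). Both calls lie close to the threshold: Map3k6 kept its direction in 17 of 17 alternative settings and passed in 4, and Tmem100 kept its direction in 17 of 17 and passed in 5. Among these, leaving out untreated replicate 1, untreated replicate 3, vehicle replicate 2 or vehicle replicate 3 ended both calls, and leaving out vehicle replicate 1 ended that of Map3k6. Another tool, DESeq2, called 503 genes, 142 higher and 361 lower after vehicle, both of these 2 among the higher ones.

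An unadjusted p under 0.05 was reached by 1373 genes higher after vehicle (8.79% of those tested) and by 1159 lower (7.42%). Among the 13901 genes not set apart it was 9.78% higher and 5.05% lower. List counts in alternative settings are to be read beside all genes reaching that p in either direction, 2532 in the fit reported. These were 721 with marker covariates, 1331 with only the 2 groups compared, 1587 with limma voom and 2573 after subtraction. Leaving out 1 library gave 1281 to 3191, the least without vehicle replicate 2, and 1520 without untreated replicate 1. All 3 vehicle hearts lay above all 3 untreated hearts in 8.61% of genes tested and below them in 8.64%; among genes not set apart these shares were 9.65% and 6.86%. The genes named from here on, other than those 2, did not pass the adjusted threshold, and their values are given as descriptions.

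**Figure D2:**
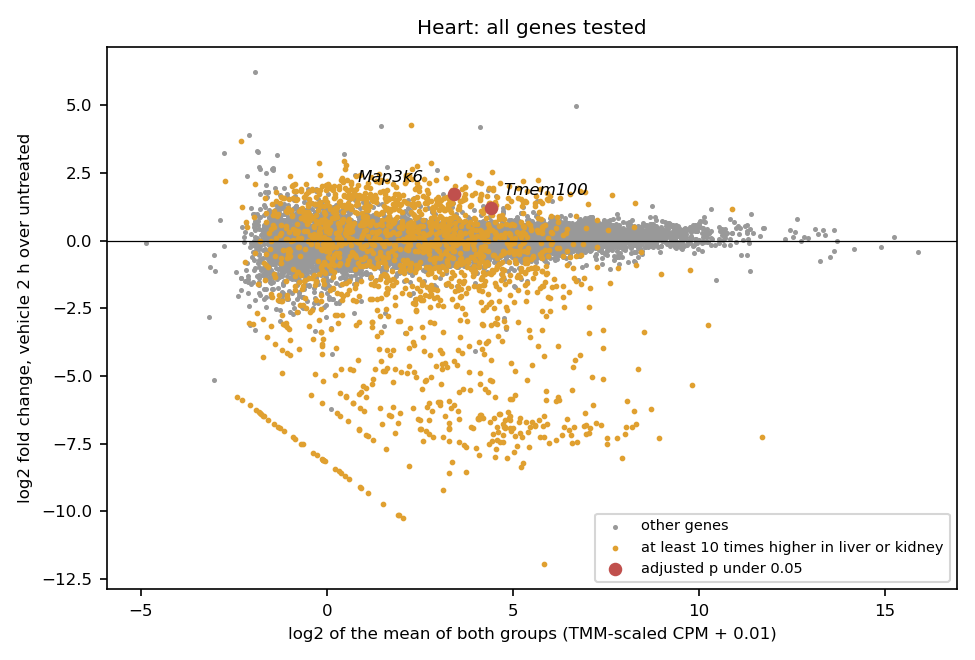
Log2 fold change of vehicle 2 h over untreated against the log2 mean CPM of both groups, 1 point per gene tested. Map3k6 (1.71) and Tmem100 (1.22) are marked; nearly all points far below 0 are genes at least 10 times higher in liver or kidney than in heart, although many such genes also lie near 0.

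The gene with the next smallest p was Timp4, an inhibitor of matrix metalloproteinases that is abundant in heart. It had 41.9, 65.6 and 54.6 CPM in the vehicle hearts, against 19.8, 22.3 and 26.4 CPM in the untreated hearts, a log2 difference of 1.24 ± 0.20 (SE; edgeR, adjusted p = 0.0933). Rgs2, which damps signalling through Gq-coupled receptors, had 45.3, 51.1 and 60.8 CPM in the vehicle hearts, against 29.8, 31.8 and 32.0 CPM in the untreated hearts. Neither gene's groups overlapped.

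The list of 22 glucocorticoid-induced genes, all tested, leaned towards higher levels after vehicle. Map3k6 is its 1 called member. An unadjusted p under 0.05 was reached by 12 members higher and 0 lower, against 8.79% and 7.42% of all genes, and the list's median log2 fold change was 0.53 beside 0.01 for all genes tested. In 9 members every vehicle heart lay above every untreated heart, which 8.61% of all genes did. Fkbp5, a co-chaperone of the glucocorticoid receptor, had 41.1, 32.1 and 37.8 CPM in the vehicle hearts, against 14.1, 14.6 and 19.4 CPM in the untreated hearts. Arrdc2, an arrestin-domain protein, had 9.24, 6.60 and 6.80 CPM in the vehicle hearts, against 2.12, 1.96 and 3.51 CPM in the untreated hearts. Both sets of 3 were tight and well apart. Klf15, a factor that controls metabolism in heart muscle, had 80.1, 86.9 and 85.3 CPM in the vehicle hearts, against 64.3, 42.2 and 48.1 CPM in the untreated hearts. Ddit4, an inhibitor of the growth kinase complex mTORC1, had 43.5, 88.5 and 90.2 CPM in the vehicle hearts, against 20.4, 38.4 and 21.3 CPM in the untreated hearts. Zbtb16, a zinc finger repressor, had 14.9, 13.7 and 19.5 CPM in the vehicle hearts, against 7.94, 7.51 and 5.88 CPM in the untreated hearts. These 3 also did not overlap, with vehicle replicate 1 of Ddit4 nearest to the untreated hearts. Sgk1, a kinase that regulates ion transport, overlapped: its untreated replicate 2 stood at 87.7 CPM beside 84.1 CPM in vehicle replicate 2. Other members lay nearer 0: Per1, Klf9, Mt1, Bcl6, Dusp1 and Glul had log2 fold changes from -0.01 to 0.33. Of the 22 members, 3 had a negative log2 fold change. In a fit over all 68 libraries, Errfi1 had -0.90 ± 0.41 and Mt2 -0.97 ± 0.80 (SE) in heart, both set apart. The list's higher count ran from 8 to 13 members when each of the 6 libraries was left out in turn. Its lower count was then 0, except for 2 without vehicle replicate 1. Without the libraries rich in hepatocyte markers, which left 1 untreated heart, the median was 0.33. The median was 0.35 without vehicle replicate 3.

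**Figure D3:**
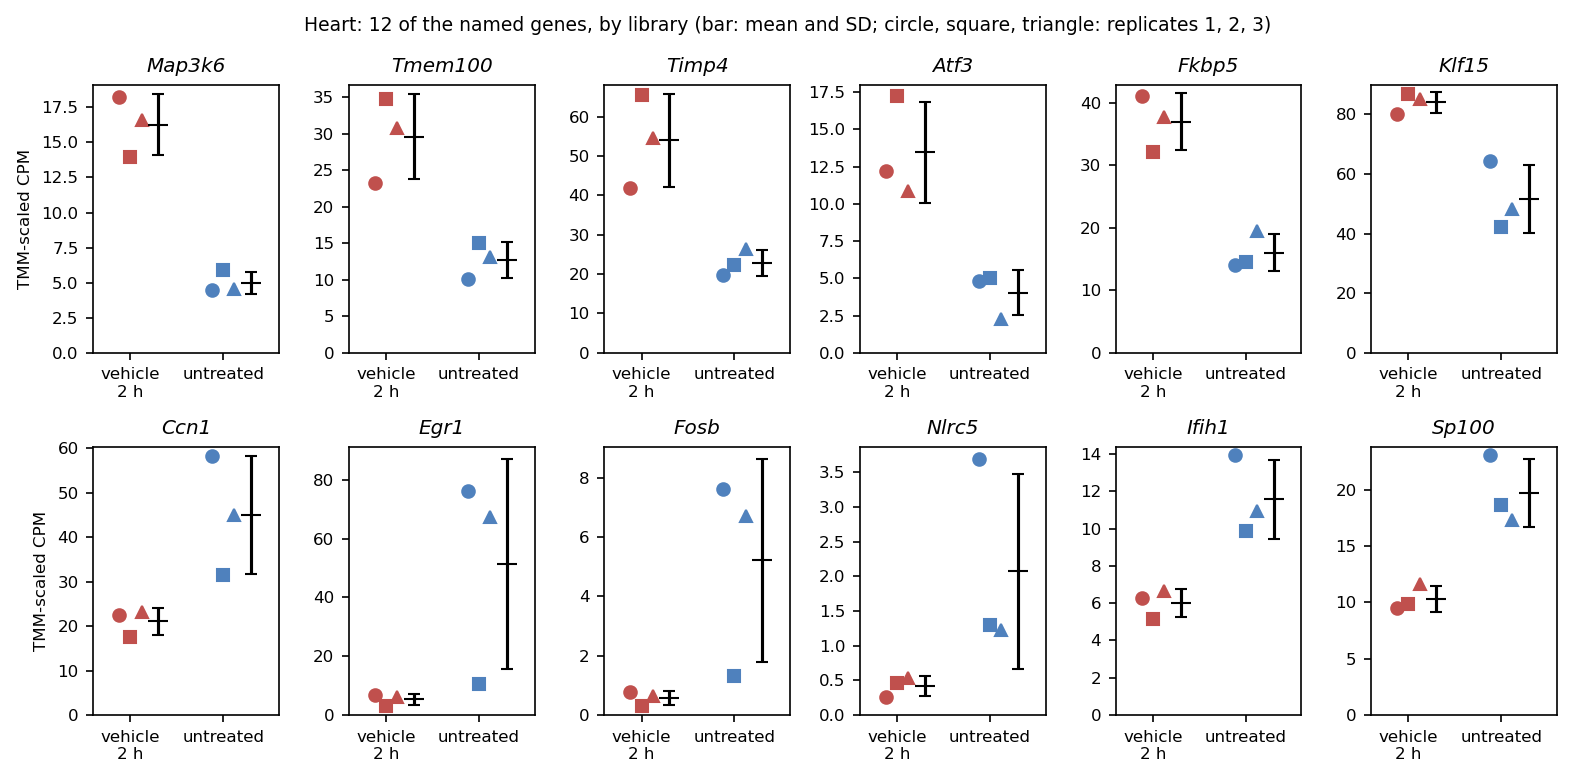
TMM-scaled CPM of 12 named genes in each heart library, vehicle 2 h left of untreated, with the mean and SD beside the points. Map3k6 lies between 14.0 and 18.2 CPM after vehicle and between 4.49 and 5.87 CPM in untreated hearts, and Egr1 and Fosb are high in untreated replicates 1 and 3.

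The promoters of Map3k6, the called member, and of Fkbp5 and Klf15 are shown because these genes separated the groups cleanly; they were chosen after their values were seen. Each runs from 250 bases before the start to 50 after it, 5′ to 3′ on the gene's strand, from RefSeq on GRCm38.p6, a build older than that of the counts. Capitals mark matches, on either strand, to the E-box CACGTG or TGACG, the core of the cAMP response element, which overlap in Klf15 near its start.
Map3k6, chr4:133240568-133240867, plus strand: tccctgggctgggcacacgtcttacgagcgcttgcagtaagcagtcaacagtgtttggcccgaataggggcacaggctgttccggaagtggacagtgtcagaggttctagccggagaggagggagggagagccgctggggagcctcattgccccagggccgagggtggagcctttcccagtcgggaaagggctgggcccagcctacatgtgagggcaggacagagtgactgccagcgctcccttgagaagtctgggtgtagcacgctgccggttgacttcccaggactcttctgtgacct
Fkbp5, chr17:28486100-28486399, minus strand: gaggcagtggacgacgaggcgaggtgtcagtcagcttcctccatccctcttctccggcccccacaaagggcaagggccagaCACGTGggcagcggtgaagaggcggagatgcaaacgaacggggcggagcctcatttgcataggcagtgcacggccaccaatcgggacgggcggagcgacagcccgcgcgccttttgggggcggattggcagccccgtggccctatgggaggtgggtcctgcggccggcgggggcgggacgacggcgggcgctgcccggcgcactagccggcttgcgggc
Klf15, chr6:90462326-90462625, plus strand: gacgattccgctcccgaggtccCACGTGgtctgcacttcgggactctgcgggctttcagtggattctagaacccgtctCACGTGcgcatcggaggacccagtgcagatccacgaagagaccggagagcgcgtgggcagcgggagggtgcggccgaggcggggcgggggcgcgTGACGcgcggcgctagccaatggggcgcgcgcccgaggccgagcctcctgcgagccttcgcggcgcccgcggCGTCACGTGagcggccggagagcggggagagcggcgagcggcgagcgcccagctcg
The search also covered the full glucocorticoid response element, its 6-base arm AGAACA, the D-box TTATGTAA, the full cAMP response element TGACGTCA and the heat shock element GAANNTTC, none of which these 3 windows hold. Klf15 held 3 E-boxes and 2 cAMP element cores and Fkbp5 held 1 E-box, while Map3k6 held none of the motifs. Of 32851 promoters of this length, 7.15% held the E-box, 20.8% the cAMP element core, 19% the glucocorticoid arm and 0.00913% the full glucocorticoid element. Tmem100 has no entry.

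Immediate early genes split in both directions. Of 26 listed, 24 were tested; 4 had an unadjusted p under 0.05 and higher levels after vehicle, 10 had one and lower levels, against 8.79% and 7.42% of all genes, and the median log2 fold change was -0.36. The median was -0.08 without untreated replicate 2, where 1 higher and 7 lower members passed the adjusted threshold of edgeR, and -0.13 without vehicle replicate 2. Egr1, a zinc finger factor, had 6.69, 3.22 and 6.10 CPM in the vehicle hearts, against 76.3, 10.6 and 67.3 CPM in the untreated hearts. Fos, the AP-1 subunit, had 1.72, 0.998 and 2.52 CPM in the vehicle hearts, against 47.3, 2.02 and 41.2 CPM in the untreated hearts. Untreated replicates 1 and 3 carried the high values, and untreated replicate 2 lay within or near the vehicle range. Junb, another AP-1 subunit, had 23.7, 18.3 and 19.3 CPM in the vehicle hearts, against 73.5, 19.8 and 70.3 CPM in the untreated hearts. Zfp36, which destabilises short-lived messenger RNAs, had 15.0, 13.7 and 18.5 CPM in the vehicle hearts, against 60.6, 17.1 and 76.4 CPM in the untreated hearts. Those same 2 untreated libraries hold the largest hepatocyte marker sums. With the libraries rich in hepatocyte markers left out, which leaves untreated replicate 2 as the lone untreated heart, the list's median was -0.28. A count of members from that fit would rest on this 1 heart and is left out. Over the 17 alternative settings the log2 fold change of Egr1 stayed negative, from -3.74 to -0.99. The lower count was 11 (median -0.49) with hepatocyte and kidney markers as covariates. It was 10 (median -0.45) after subtracting estimated liver and kidney RNA.

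Other members were higher after vehicle. Atf3, a stress-induced repressor of the ATF family, had 12.2, 17.3 and 10.8 CPM in the vehicle hearts, against 4.79, 5.03 and 2.29 CPM in the untreated hearts, a log2 difference of 1.73 ± 0.31 (SE; edgeR, adjusted p = 0.159). Nr4a3, an orphan nuclear receptor, had 16.1, 10.7 and 13.5 CPM in the vehicle hearts, against 0.667, 4.96 and 0.898 CPM in the untreated hearts, where replicate 2 was again apart from replicates 1 and 3. Maff, a small Maf factor, averaged 9.96 ± 1.39 CPM in the vehicle hearts and 5.10 ± 0.844 CPM in the untreated hearts (SD, n = 3 each). In all of these the 3 vehicle hearts lay above the 3 untreated ones. Ccn1, a matrix-associated protein, was lower in all vehicle hearts, with 22.4, 17.6 and 23.1 CPM against 58.3, 31.6 and 45.1 CPM in the untreated hearts.

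Among interferon-induced genes, all 19 tested members of 21 had a negative log2 fold change, 14 with an unadjusted p under 0.05, against 7.42% of all genes, and the median was -0.75; none passed the adjusted threshold. Ifih1, a sensor of viral double-stranded RNA, had 6.25, 5.14 and 6.63 CPM in the vehicle hearts, against 13.9, 9.86 and 10.9 CPM in the untreated hearts. Gbp2, a guanylate-binding protein, had 14.3, 14.7 and 15.1 CPM in the vehicle hearts, against 75.1, 19.8 and 22.6 CPM in the untreated hearts. Ifih1 was apart in all 6 libraries, whereas most of the Gbp2 difference came from untreated replicate 1. Without untreated replicate 1, 6 members were lower at an unadjusted p under 0.05, 17 of 19 stayed negative and the median was -0.32. The 14 became 4 with hepatocyte and kidney markers as covariates and 8 with only the 2 groups compared. All genes reaching that p, in either direction, also fell from 2532 to 721 and 1331 in these 2 settings. After subtracting estimated liver and kidney RNA the 14 became 13, with all 19 negative and a median of -0.75. Without the libraries rich in hepatocyte markers, which left 1 untreated heart, 17 of 19 were negative and the median was -0.50. Outside the list, Nlrc5, which activates MHC class I genes, had 0.255, 0.461 and 0.528 CPM in the vehicle hearts, against 3.70, 1.31 and 1.23 CPM in the untreated hearts. Sp100, a nuclear body protein, averaged 10.3 ± 1.14 CPM in the vehicle hearts and 19.7 ± 3.03 CPM in the untreated hearts (SD, n = 3 each), without overlap.

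**Figure D4:**
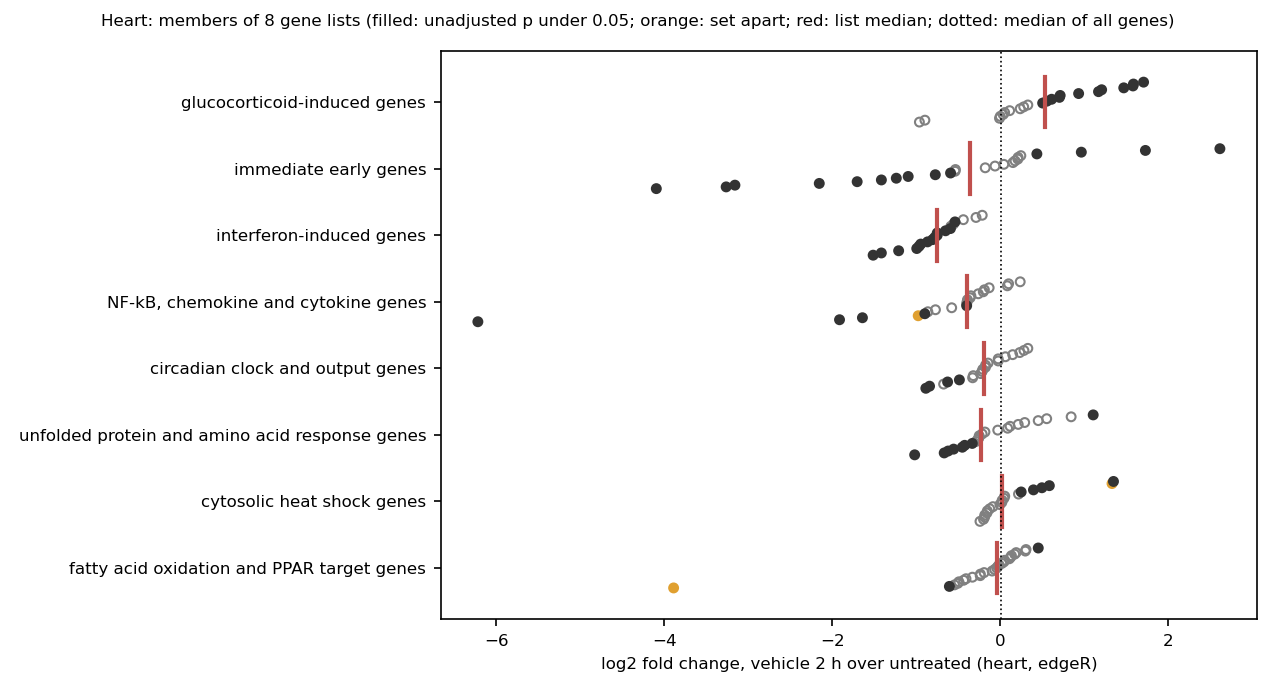
Log2 fold change of vehicle 2 h over untreated for the tested members of 8 gene lists, with the list median in red. The medians are 0.53 for glucocorticoid-induced genes, -0.36 for immediate early genes and -0.75 for interferon-induced genes, beside 0.01 for all genes.

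Of 21 tested NF-kB, chemokine and cytokine genes, 6 were lower and 0 higher at an unadjusted p under 0.05, against 7.42% and 8.79% of all genes, with a median of -0.39. The 6 became 3 without untreated replicate 1, without vehicle replicate 2, with voom or with only the 2 groups compared. They became 4 without vehicle replicate 3 and 2 with marker covariates. All genes reaching that p, in either direction, fell from 2532 to 721 with covariates but rose to 3191 without vehicle replicate 3. Without the libraries rich in hepatocyte markers, which left 1 untreated heart, the list's median was -0.23. Cxcl1, a neutrophil-attracting chemokine, had 0.0638, 0 and 0 CPM in the vehicle hearts, against 2.18, 0.131 and 4.08 CPM in the untreated hearts, so the level is near the limit of counting after vehicle. Of the 22 genes listed for endoplasmic reticulum stress and amino acid shortage, 7 were lower and 1 higher, against 7.42% and 8.79% of all genes, with a median of -0.23. The lower ones include the endoplasmic reticulum chaperones Hsp90b1, Hyou1 and Pdia4; Pdia4 had 33.0, 13.8 and 25.1 CPM in the vehicle hearts, against 59.8, 36.3 and 49.6 CPM in the untreated hearts. The lower count of this list was 2 without untreated replicate 1, 3 without vehicle replicate 2, 4 without untreated replicate 3 and 3 with only the 2 groups compared or after subtraction. It was 0 with marker covariates, where 721 of all genes reached that p. Without the libraries rich in hepatocyte markers, which left 1 untreated heart, the list's median was 0.0056. Chac1, which degrades glutathione, was the higher one, with 9.67 ± 2.49 CPM in the vehicle hearts and 4.49 ± 0.990 CPM in the untreated hearts (SD, n = 3 each). Of 20 cytosolic heat shock genes, 6 were higher and 0 lower at an unadjusted p under 0.05, against 8.79% and 7.42% of all genes. Dnajb1, a partner of Hsp70, had 29.2, 45.7 and 31.4 CPM in the vehicle hearts, against 22.4, 27.5 and 20.9 CPM in the untreated hearts, while the list's median was 0.02 beside 0.01 for all genes. Hspa1a and Hspa1b are near-identical copies whose reads the counting could split, so their separate values are uncertain.

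Of 17 cardiac stress genes, 3 were higher and 1 lower at an unadjusted p under 0.05, and of 26 cardiac ion channel and transporter genes 1 was higher and 1 lower, against 8.79% and 7.42% of all genes. Ccn2, a matrix-associated growth factor modulator, had 111, 125 and 70.5 CPM in the vehicle hearts, against 33.5, 70.0 and 58.2 CPM in the untreated hearts. The lowest vehicle heart lay only just above the highest untreated heart. Nppb, the B-type natriuretic peptide, had 289, 456 and 192 CPM in the vehicle hearts, against 206, 220.0 and 308 CPM in the untreated hearts and overlapped. Gja1, the gap junction protein connexin 43, averaged 165 ± 37.8 CPM in the vehicle hearts and 301 ± 32.4 CPM in the untreated hearts (SD, n = 3 each), and these did not overlap. Slc2a4, the insulin-responsive glucose transporter, had 655, 933 and 847 CPM in the vehicle hearts, against 629, 602 and 651 CPM in the untreated hearts. Of 27 fatty acid oxidation and PPAR target genes, 1 was higher and 2 lower at an unadjusted p under 0.05.

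Clock genes, which time daily rhythms of transcription, showed no call. Of 20 tested, 0 were higher and 4 lower at an unadjusted p under 0.05, against 8.79% and 7.42% of all genes, with a median of -0.19. Bhlhe41, a repressor of the clock, had 8.48, 8.29 and 8.62 CPM in the vehicle hearts, against 21.7, 12.3 and 12.9 CPM in the untreated hearts. Dbp, a clock output factor, had 45.3, 64.3 and 32.7 CPM in the vehicle hearts, against 110.3, 28.3 and 28.4 CPM in the untreated hearts. Arntl, the gene of the core activator Bmal1, had 9.75, 6.60 and 13.7 CPM in the vehicle hearts, against 5.40, 13.2 and 16.3 CPM in the untreated hearts. Untreated replicate 1 was thus high in Dbp and low in Arntl beside untreated replicates 2 and 3. Without untreated replicate 1 the list's median was 0.04, with 2 members higher and 2 lower. The lower count was 2 without untreated replicate 3 or with voom. It was 1 without vehicle replicate 2, with only the 2 groups compared or with marker covariates. In these last 3 settings 1281, 1331 and 721 of all genes reached that p, against 2532 in the fit reported. Without the libraries rich in hepatocyte markers, which left 1 untreated heart, the list's median was -0.11. The clock time of each harvest is not given in the sources used here, and its part in any result was not tested.

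The remaining lists held no called gene. Beside 8.79% of all genes higher and 7.42% lower at an unadjusted p under 0.05, hypoxia genes had 3 higher and 0 lower of 17 tested. Glucose uptake and glycolysis genes had 2 higher and 0 lower of 24. Cell cycle genes had 1 higher and 0 lower of 15, although 14 of the 15 had a negative log2 fold change (median -0.52). Of the 13 mitochondrially encoded genes, 0 were higher and 3 lower (median -0.43).

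The hearts taken 6 h after vehicle were set against the same 2 h hearts, in the fit over all heart groups. 6 genes passed between 6 h and 2 h (0.0384% of those tested), and 0 passed with only these 2 groups in the fit. Atf3 fell to 2.86, 2.05 and 3.50 CPM at 6 h, against 12.2, 17.3 and 10.8 CPM at 2 h (log2 -2.26 ± 0.32 (SE); edgeR, adjusted p = 0.0150). Nppb and Slc41a3 also fell, and Lonrf1, Mid1ip1 and Mt1 rose. Lonrf1 and Slc41a3 passed whichever of these 6 libraries was left out. Atf3 no longer passed without 6 h replicate 1 or 2. Nppb passed only without 2 h replicate 3, Mid1ip1 only without 2 h replicate 2, and Mt1 only without 2 h replicate 2 or 6 h replicate 3. Map3k6 had 8.98, 6.87 and 5.61 CPM at 6 h and Fkbp5 had 23.1, 12.4 and 15.5 CPM, both below every 2 h value, but neither passed (edgeR, adjusted p = 0.167 and 0.173). Of the clock list 11 members were higher and 4 lower at 6 h at an unadjusted p under 0.05, against 2.75% and 2.59% of all genes. Dbp, for example, had 184, 152 and 158 CPM at 6 h, all above the 2 h hearts.

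**Figure D5:**
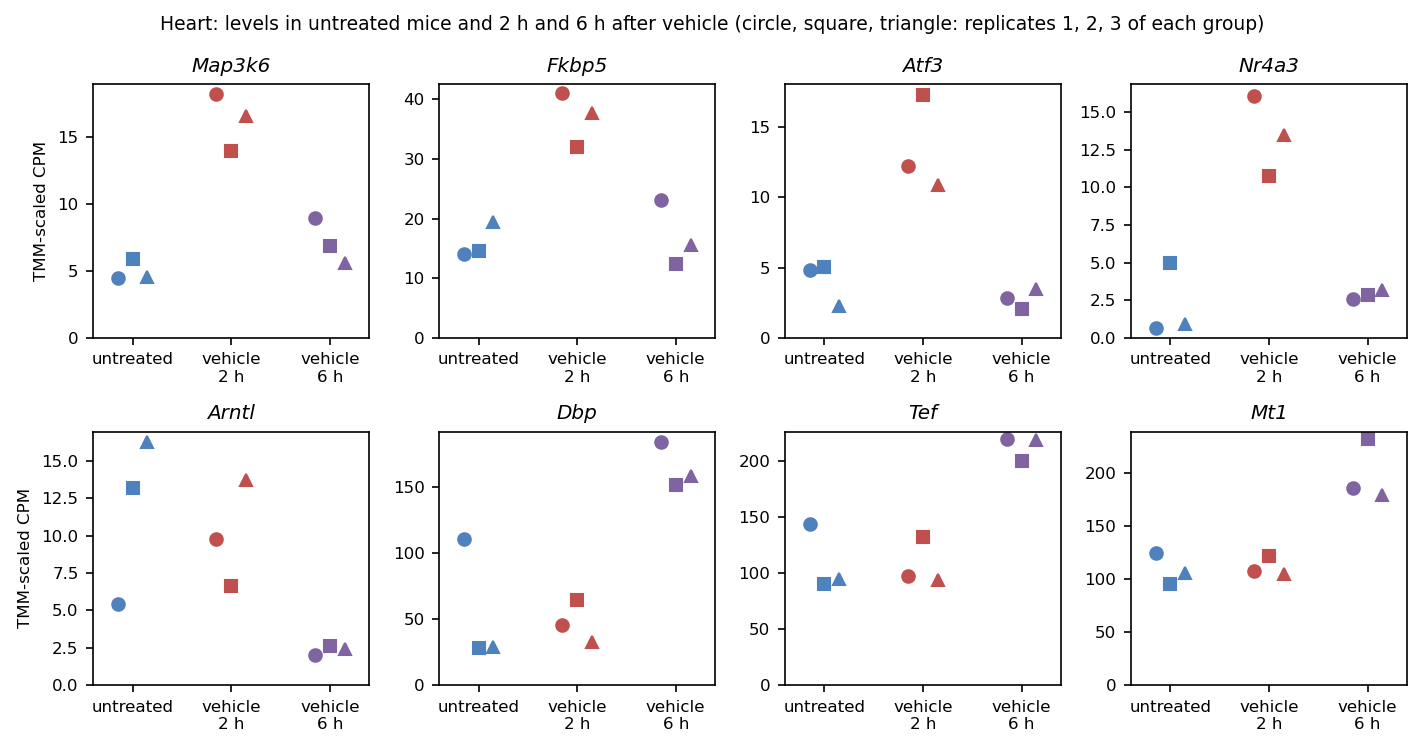
TMM-scaled CPM of 8 genes in untreated hearts (time 0 h) and in hearts 2 h and 6 h after vehicle, 1 point per library. Map3k6, Fkbp5, Atf3 and Nr4a3 are highest at 2 h, and Dbp reaches 152 to 184 CPM at 6 h, with untreated replicate 1 at 110.3 CPM.

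The 1717 genes set apart leaned towards lower levels after vehicle. An unadjusted p under 0.05 was reached by 457 of them lower after vehicle (26.6%) and by 13 higher (0.757%), their median log2 fold change was -0.25, and 396 (23.1%) lay wholly below the untreated hearts, against 0.233% wholly above. None passed the adjusted threshold. Alb, the serum albumin gene of hepatocytes, averaged 43.4 ± 23.1 CPM in the vehicle hearts and 6660 ± 5089 CPM in the untreated hearts (SD, n = 3 each). Fn1, the matrix protein fibronectin, had 33.5, 19.5 and 39.9 CPM in the vehicle hearts, against 177, 55.6 and 166 CPM in the untreated hearts; liver makes much of it, so it too is set apart. Egfr, the receptor of Egf, is also set apart, with 9.05, 4.84 and 4.98 CPM in the vehicle hearts, against 24.3, 9.86 and 29.8 CPM in the untreated hearts, untreated replicates 1 and 3 being highest. Its log2 fold change was -1.76 ± 0.76 (SE; edgeR, adjusted p = 0.285) and turned to 0.34 once the estimated liver and kidney RNA was subtracted. That estimate put liver RNA at 13.2%, 0.966% and 11.9% of the untreated hearts and at no more than 0.0478% of the vehicle hearts. It put kidney RNA at 15.1%, 1.69% and 0.0434% of the vehicle hearts, and at 0%, 5.09% and 0% of the untreated hearts.

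A joint model of the 68 libraries set the heart difference against the mean of the corresponding differences in the other 3 organs. It treated all libraries as independent, although the labels name 3 mice as untreated controls, so organs may share animals. It called 198 of 18736 genes (1.06%), 16 higher and 182 lower in heart relative to the other organs, of which 39 are not set apart. The count rests on single libraries: it was 0 without untreated replicate 1, 13 without untreated replicate 3, 16 without vehicle replicate 2, 12 without vehicle replicate 3 and 563 without untreated replicate 2. It was also 0 without the libraries rich in hepatocyte markers. The genes below are given with that limit. Arrdc2 was among them: its log2 fold change of vehicle over untreated was 1.59 ± 0.32 (SE) in heart and, elsewhere, -0.22 (lung), -0.41 (kidney) and 0.42 (liver), a difference of 1.66 ± 0.37 (SE; edgeR, adjusted p = 0.0200). Rgs2 differed likewise, by 1.31 ± 0.24 (SE; edgeR, adjusted p = 0.00885), with -0.97 in lung and -0.72 in liver. Fosb, an AP-1 subunit, differed the other way, by -4.43 ± 0.77 (SE; edgeR, adjusted p = 0.00473); in heart it had 0.765, 0.307 and 0.645 CPM after vehicle, against 7.64, 1.31 and 6.70 CPM in untreated hearts. Map3k6 was not called in this fit: its log2 fold change was 1.71 in heart and, elsewhere, 2.14 (lung), 0.74 (kidney) and 1.20 (liver) (difference 0.35 ± 0.29 (SE); edgeR, adjusted p = 0.906). For Fkbp5 it was 1.21 in heart, with 2.48 (lung), 1.19 (kidney) and 0.26 (liver). Tmem100 had 1.23 in heart and 0.13 in lung, but the difference of 1.34 ± 0.38 (SE) from the other organs did not pass (edgeR, adjusted p = 0.0623).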

How the data were processed

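RNA of 17 heart libraries was analysed, with the lung, kidney and liver libraries of the series (68 in all) used to set genes apart and to test differences between organs. The deposited values are raw read counts per gene. Per the submitters' processing notes, the authors used HISAT2 2.0.5, featureCounts 1.5.0-p3 and build mm39. Which counting options were set is not known here. Per the labels' protocols the libraries were non-directional, and without strand, reads of a gene and of an antisense or overlapping partner are indistinguishable. Beyond 3 mice kept as untreated controls, the labels do not tie libraries to animals, so p values measure the spread between these libraries. Rank correlations between pairs of the 6 libraries were at most 0.983.

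Low counts were removed with filterByExpr, libraries were scaled by TMM, and groups were compared by the quasi-likelihood method with robust estimation in edgeR 4.0.16 (R 4.3.3) over the 5 heart groups, with Benjamini-Hochberg adjustment over all genes tested and a threshold of 0.05. The common biological coefficient of variation was 0.389. A gene was set apart where its highest group mean CPM in liver or kidney was at least 10 times its median heart CPM plus 0.1. In counts simulated for this comparison over 15345 genes, the procedure called 4.48% of 67 genes changed 1.5-fold, 26.9% of 67 changed 2-fold and 75.8% of 66 changed 4-fold, with 3 false calls. Counts were drawn independently for each gene.

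Named genes were those called, not set apart, averaging 1 CPM or more in either group, groups without overlap and an informative symbol; with fewer than 5 called in a direction, also the 8 with the smallest p in that direction; from each list its called members or, with none, the member with the smallest p; of genes set apart, called ones with the largest change; and the 6 called genes with the smallest p in each other comparison. Members of lists named beside these, and Gapdh, Ucp1 and Ms4a1, were picked after their values were seen. Of the genes the naming rule picked, Vsir, Fabp3, Sox17, Cdkn1a, Dkc1, Pcna and mt-Nd6 are not described. The gene lists, written from general knowledge, and this comparison were chosen with earlier results of these data known. Alternatives used DESeq2 1.42.0, limma 3.58.1 voom, other scalings and filters, a replicate block and libraries left out.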

Additional observations from a re-analysis of the deposited data

Results flagged for a closer look

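In the fit over all organs, the difference between vehicle and untreated hearts departed from the mean of the other organs for 7 reported genes that are not set apart. The log2 difference of heart minus the other organs was 1.66 for Arrdc2, 1.31 for Rgs2, 1.17 for Mindy4 and 1.17 for Slc25a35. It was -2.47 for Mroh2a, -4.43 for Fosb and -7.10 for Cxcl1. In the fit of the heart libraries alone, Mroh2a averaged 0.282 ± 0.143 CPM in vehicle hearts and 1.59 ± 0.759 CPM in untreated hearts, and Cxcl1 averaged 0.0213 ± 0.0368 CPM in vehicle hearts and 2.13 ± 1.98 CPM in untreated hearts (SD, n = 3 each). Without untreated replicate 1, no gene passed in the fit over all organs.

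Between 6 h and 2 h after vehicle, 6 genes passed the test in heart. The log2 fold change of 6 h over 2 h was 1.55 for Lonrf1, 1.17 for Mid1ip1 and 0.84 for Mt1, a metal-binding metallothionein. It was -1.12 for Slc41a3, a magnesium transporter, -1.74 for Nppb and -2.26 for Atf3.

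In the 4 hearts taken 2 h after Egf, which serve here only to estimate the spread, a library stood apart from the other 3 for 3 named genes by Dixon's criterion. The lowest library had 19.4 CPM of Ccn1, and another was lowest for Spry4, an inhibitor of receptor tyrosine kinase signalling, with 6.30 CPM. Egfr was highest, at 19.7 CPM, in the library with the largest hepatocyte marker sum of that group, and the part of those transcripts in this value was not tested. Chance marks about 1 in 20 groups in this way.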

How the results depend on the processing

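For vehicle 2 h against untreated, 2 genes passed with edgeR, both higher and neither set apart. The count was 0 with RLE size factors, limma voom, only the 2 groups compared, no robust estimation, covariates for hepatocyte and kidney markers, or TMM from genes not set apart (2591, 1587, 1331, 2548, 721 and 2441 genes at an unadjusted p under 0.05, in that order). DESeq2 called 503, 142 higher and 361 lower; of these 239 are not set apart, 142 higher and 97 lower. Subtracting estimated liver and kidney RNA gave 7, 5 higher and 2 lower, of which 6 are not set apart, 4 higher and 2 lower. Leaving out each library gave 0 to 22, with 0 to 9 higher and 0 to 13 lower; of genes not set apart, 0 to 20, with 0 to 9 higher and 0 to 11 lower. The 22 came without untreated replicate 2.

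Between 6 h and 2 h, 6 genes passed, 3 in each direction. The count was 63 with DESeq2 (37 higher, 26 lower), 26 with voom (11 higher, 15 lower) and 0 with only the 2 groups. Leaving out each library gave 2 to 8, with 1 to 3 higher and 1 to 5 lower.

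For heart against the other organs, 198 genes passed, against 50 with no filter, 559 with DESeq2 and 359 with only the vehicle 2 h and untreated libraries; leaving out each library gave 0 to 563.

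Replicate numbers do not pair the libraries: deviations of same-numbered vehicle and untreated hearts correlated at -0.25, -0.0064 and 0.21. With them as a block, 0 genes passed against untreated (2686 at an unadjusted p under 0.05), 3 between 6 h and 2 h (1 lower), and 210 for the organs.

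Leaving out libraries that carry markers of another organ, as planned, left no untreated heart, so it gave no value against untreated, and 0 genes between 6 h and 2 h. A rule chosen after seeing the data, dropping only libraries rich in hepatocyte markers, kept 1 untreated heart, assumed to vary like the other groups. It gave 0 genes against untreated (1167 at an unadjusted p under 0.05), 13 between 6 h and 2 h (7 higher, 6 lower) and 0 for the organs.

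Some log2 differences of vehicle over untreated changed sign, and the cause was not tested. Mt1 turned to -0.018 with voom, Cat to 0.026 and Egfr to 0.30 with covariates, Egfr to 0.34 after subtraction, Mid1ip1 to 0.10 without the hepatocyte-rich libraries and summed platelet markers to 0.0032 with TMM scaling. Leaving out each library gave -0.025 to 0.61 for Nppb, -0.36 to 0.060 for Mid1ip1 and -0.050 to 0.15 for Mt1. For summed markers it gave -0.014 to 0.16 (cardiomyocyte), -0.97 to 0.72 (atrial cardiomyocyte), -0.13 to 0.80 (skeletal muscle), -0.68 to 2.41 (fat), -0.54 to 0.17 (monocyte), -0.37 to 0.44 (platelet), -0.45 to 0.12 (smooth muscle and pericyte), -0.14 to 0.062 (nerve) and -0.35 to 0.062 (adrenal cortex). With 3 libraries a group, 26.9% of simulated 2-fold changes were called.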

Other observations

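Gapdh, a glycolytic enzyme often used as a loading reference, averaged 200.3 ± 192 CPM in the vehicle hearts and 6.31 ± 7.31 CPM in the untreated hearts (SD, n = 3 each). The log2 difference of 4.98 ± 2.57 (SE; edgeR, adjusted p = 0.349) did not pass. Gapdh has near-identical pseudogene copies. Whether the counting split its reads with them was not tested, so its level is uncertain. It was picked out after its values were seen.

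Ucp1, the uncoupling protein of brown fat, averaged 33.0 ± 53.6 CPM in the vehicle hearts and 1.89 ± 3.10 CPM in the untreated hearts (SD, n = 3 each), and fat markers together ran from 5.47 to 469 CPM in the vehicle hearts and from 3.93 to 103 CPM in the untreated hearts. Ms4a1, the B cell antigen CD20, averaged 0.195 ± 0.0533 CPM in the vehicle hearts and 1.93 ± 1.55 CPM in the untreated hearts (SD, n = 3 each).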
